A study of Rattus norvegicus with 7 samples.

Results

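The genes described here fold and inspect proteins in the endoplasmic reticulum (ER), the compartment through which secreted and membrane proteins pass, and were measured in rat bone marrow mesenchymal stem cells (rMSCs) on 3 surfaces. They were chosen by gene symbol from knowledge of the pathway and are 10 of the 17147 symbols measured in each library. Hspa5, Hsp90b1 and Hyou1 encode chaperones of the ER lumen. Calr and Canx encode lectin chaperones, Pdia3, Pdia4 and Pdia6 encode protein disulfide isomerases, Xbp1 encodes a transcription factor of the unfolded protein response, and Herpud1 encodes a membrane protein of ER-associated degradation. All 10 were tested, and all 10 had a mean of at least 16 FPKM (a fragment count divided by transcript length and by library size) on a film.

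The cells were primary rMSCs that, per the methods, came from the bone marrow of a male Sprague-Dawley rat aged 6 weeks. Elsewhere the methods write of rats in the plural, so the number of donors is uncertain. No library is known to come from a separate animal. In every group 20000 cells were seeded and RNA was taken 4 h later. The groups were tissue culture plastic (TCP, 1 library), a film of polycaprolactone (PCL, 3 libraries) and a film of ISB-P, a polyurethane that joins polycaprolactone to propoxylated isosorbide (3 libraries), with both films 16 mm across and sterilized with ethylene oxide gas. The film libraries are described as triplicate experiments, but the sources do not say whether these were separate cultures, so p-values measure the spread between these libraries, which may be technical.

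How many reads lie behind a library is not known, so no counting error or detection floor is given, and precision rests on the 3 libraries of each film. The deposited values summed to between 539393 and 660124 FPKM in a library, with 4537 to 5105 symbols listed at 0. No library was a copy of another. The stem cell label was checked against 8 mesenchymal markers, which summed to 2292 FPKM on TCP, 1918 to 2430 FPKM on PCL and 1972 to 2743 FPKM on ISB-P. Thy1, Itgb1 and Cd44 made up most of each sum. Pdgfrb was at 177, 167 and 154 FPKM on PCL and 110, 97.4 and 86.6 FPKM on ISB-P. Its log2 fold change of ISB-P against PCL, -0.76, was the lowest of the 8, of which 4 were above 0. All 5 endothelial markers were under 1 FPKM in every library. Of the 7 haematopoietic markers found, Cd34 was listed at 0 in every library, and 2 were under 1 FPKM throughout. Others were present in every library. Lyz2 was at 16.6 to 27.2 FPKM on the films and 72.9 FPKM on TCP, and Cd14 at 10.9 to 16.6 and 31.7 FPKM. Cd68 was at 3.05 to 6.24 and 15.1 FPKM, so the libraries were not free of haematopoietic transcripts. These are bulk libraries, in which fewer cells of a type and less RNA per cell cannot be told apart.

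Nascent proteins enter the ER through the translocon and are bound by Hspa5, the Hsp70 of the lumen, and by calnexin and calreticulin where they carry sugars, while disulfide isomerases make and rearrange their sulphur bonds. When unfolded proteins accumulate, the sensors Atf6, Ern1 and Eif2ak3 start the unfolded protein response. Atf6 and spliced Xbp1 raise chaperone and degradation genes through the ER stress response element (ERSE), with factor NF-Y at its CCAAT box. The cytosol has relatives of the same chaperones, which answer to Hsf factors at the heat shock element (HSE).

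The response elements of the members were read from RefSeq promoter sequence of rat build GRCr8, which differs from the build named for the expression values, so only gene symbols were matched. Promoter windows were found for 8 of the 10 members, without Pdia3 and Pdia6, and the 250 bases before each start were searched on both strands. The ERSE, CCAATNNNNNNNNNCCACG, was in 5 of the 8, Hspa5, Hsp90b1, Calr, Canx and Xbp1. Its shorter form ERSE-II, ATTGGNCCACG, was in 2 of the 8, Hyou1 and Herpud1. Pdia4 had neither. Of all 33469 promoter windows of this length, 0.0657% held an ERSE (22 windows), 0.0418% held an ERSE-II (14 windows), and 0.108% held either (36 windows), so none held both. A match describes the letters only and is not evidence of binding in these cells.

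The 7 member windows are shown because they carry the elements through which this pathway is known to be raised, each as 60 bases read 5′ to 3′ along the gene, with the fixed letters of the element in capitals (copies on the opposite strand read CGTGG first). Positions are counted back from -1 at the base before the start. Hspa5 (chr3:38452952-38453011, plus strand) has its ERSE from -43 to -25. Of the 2 ERSEs of Hsp90b1, the nearer is shown (chr7:23012327-23012386, minus strand, -72 to -54), and the other lies from -176 to -158. Calr (chr19:40213117-40213176, plus strand) has it from -232 to -214, Canx (chr10:35158048-35158107, minus strand) from -230 to -212, and Xbp1 (chr14:84604537-84604596, plus strand) from -65 to -47. Of the 2 windows of Hyou1, only the window shown held the ERSE-II. Its copies were at -188 to -178 and at -88 to -78, the latter in the bases printed (chr8:53602769-53602828, plus strand). In Herpud1 (chr19:10614797-10614856, minus strand) the ERSE-II spans -124 to -114.
Hspa5: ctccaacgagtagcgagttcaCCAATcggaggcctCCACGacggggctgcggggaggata
Hsp90b1: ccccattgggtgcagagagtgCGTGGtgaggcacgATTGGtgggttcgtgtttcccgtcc
Calr: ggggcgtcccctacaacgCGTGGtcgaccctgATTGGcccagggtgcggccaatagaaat
Canx: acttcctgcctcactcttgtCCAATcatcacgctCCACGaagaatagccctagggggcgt
Xbp1: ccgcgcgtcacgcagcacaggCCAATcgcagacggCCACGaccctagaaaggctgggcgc
Hyou1: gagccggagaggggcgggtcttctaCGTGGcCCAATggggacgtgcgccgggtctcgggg
Herpud1: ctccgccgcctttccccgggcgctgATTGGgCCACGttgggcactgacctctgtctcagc

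The HSE in the form GAANNTTCNNGAA was in no window of the 8 members. It was in 2 of the 4 windows found for the cytosolic relatives compared below, those of Hspa8 and Hsph1. The windows of Hspa1a and Hsp90ab1 held no copy, and Hspa1b and Hsp90aa1 had no window. This strict form therefore does not mark every relative that rose on ISB-P. It was in 0.663% of all windows (222), so its absence from the members' windows does not set them apart from other genes. Hspa8, the constitutive cytosolic Hsp70, held 2 copies, at -213 to -201 and at -55 to -43, the latter shown (chr8:50080435-50080494, plus strand). Hsph1, a cytosolic Hsp110, held 1 copy at -36 to -24 (chr12:10427308-10427367, plus strand). Neither ER element was in any of the 4.
Hspa8: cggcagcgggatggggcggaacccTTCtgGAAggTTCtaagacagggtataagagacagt
Hsph1: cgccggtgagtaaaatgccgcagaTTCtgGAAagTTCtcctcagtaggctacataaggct

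The comparison of ISB-P with PCL asks how the copolymer film differs from the polycaprolactone film it was set against. No member passed limma's moderated test at an adjusted p under 0.05 in either direction, and 1 of the 10, Herpud1, had an unadjusted p under 0.05. Across the 9467 genes tested, 1.10% were called higher on ISB-P, 0.623% were called lower, and 12.1% had an unadjusted p under 0.05. The members' log2 fold changes ran from -0.39 for Herpud1 to 0.32 for Canx, with a median of 0.04 beside 0.02 over all tested genes, a median that became -0.09 under quantile normalization and -0.08 under common total scaling. For 8 of the 10 the change was within 1.2-fold, a window set after the values were seen that also held 73.5% of all tested genes. The films overlapped for 9 members and did not for Herpud1, which was lower on ISB-P, whereas 9.54% of all tested genes were lower and 8.17% higher without overlap. None passed the thresholds of the study (over 2-fold, unadjusted p under 0.1, mean of at least 16 FPKM), which 0.687% of tested genes passed, and the count was also 0 with the block described next.

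**Figure D1:**
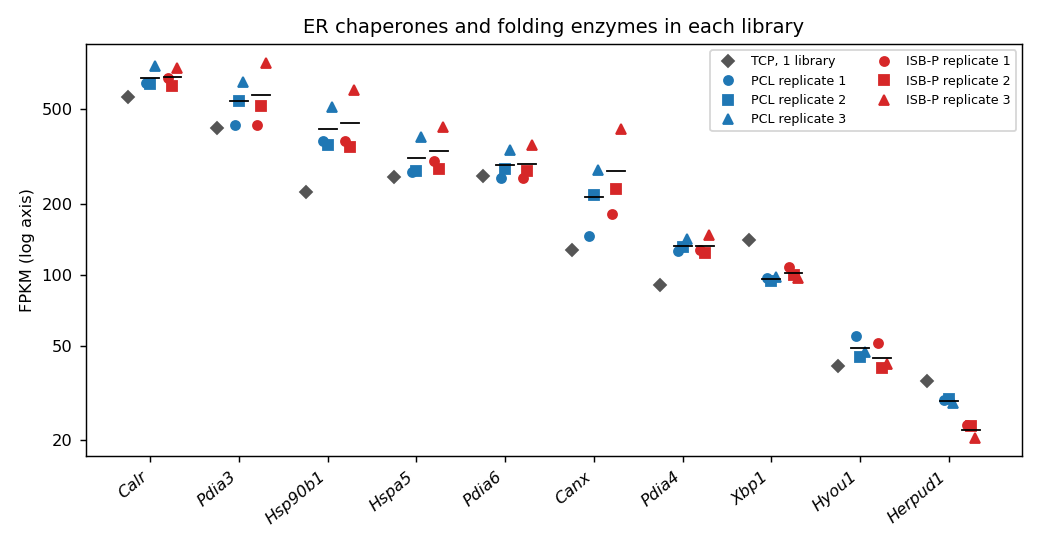
Level of each of the 10 genes in FPKM on a log axis, 1 point per library, with a black bar at the mean of the 3 libraries of each film. The blue (PCL) and red (ISB-P) points overlap for 9 genes, and for Herpud1 all red points lie below all blue points.

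Replicates with the same number deviated together on the films. When the limma fit was given the replicate number as a block, 2 members passed, Canx as higher and Herpud1 as lower on ISB-P. In that fit 13.0% of all tested genes were called higher and 11.4% lower, so that 1 of 10 members in each direction is near the share over all genes. For the other 8 members the 95% intervals of the blocked fit all included 0 and lay between a 0.813-fold and a 1.19-fold change.

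**Figure D2:**
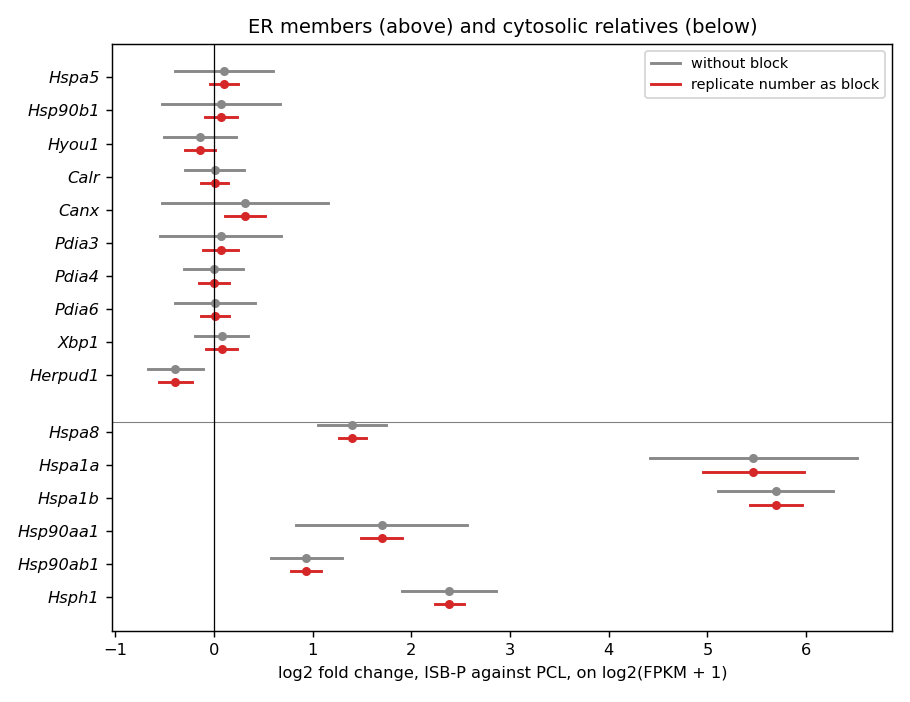
Log2 fold change of ISB-P against PCL with its 95% interval from limma for the 10 ER genes (top) and 6 cytosolic relatives (bottom), without (grey) and with (red) the replicate number as a block. Red intervals exclude 0 for Canx and Herpud1 among the ER genes and for all 6 relatives.

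Hspa5, the lumenal Hsp70 also known as BiP, was at 273, 276 and 382 FPKM on PCL replicates 1, 2 and 3, at 302, 280 and 420 FPKM on ISB-P, and at 259 FPKM on TCP. Replicate 3 was the highest of each film, and the films overlapped. The means were 334 ± 75.4 FPKM on ISB-P and 311 ± 62.1 FPKM on PCL (SD, n = 3 each), a log2 fold change of 0.10 (SE 0.21, limma adjusted p = 0.937). Within replicate numbers ISB-P was 1.11, 1.01 and 1.10 times PCL, and the blocked interval ran from -0.04 to 0.25 on the log2 scale.

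Hsp90b1, the Hsp90 of the ER, was at 367, 355 and 514 FPKM on PCL, at 369, 347 and 603 FPKM on ISB-P and at 224 FPKM on TCP. Both films again had their highest value in replicate 3, and every film library was above TCP. ISB-P differed from PCL by 0.07 on the log2 scale (SE 0.25, limma adjusted p = 0.963), with ratios within replicate numbers of 1.00, 0.976 and 1.17.

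Hyou1, an Hsp110 of the ER that exchanges nucleotide on Hspa5, was at 55.4, 44.8 and 47.4 FPKM on PCL, at 51.4, 40.4 and 41.9 FPKM on ISB-P and at 41.1 FPKM on TCP. Unlike Hspa5 and Hsp90b1 it was highest in replicate 1 of both films. Within each replicate number ISB-P was below PCL, at 0.929, 0.904 and 0.886 times its value, while the films as groups overlapped. The log2 fold change was -0.14 (SE 0.15, limma adjusted p = 0.884, and 0.165 with the block).

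Calr, the soluble lectin chaperone, had the highest FPKM of the members in 6 of the 7 libraries, and Pdia3 exceeded it in ISB-P replicate 3. It was at 645, 642 and 760 FPKM on PCL, at 676, 631 and 748 FPKM on ISB-P and at 565 FPKM on TCP. The film means of 685 ± 59.2 FPKM on ISB-P and 682 ± 67.4 FPKM on PCL (SD, n = 3 each) lay much closer than the libraries of either film. Its blocked interval for ISB-P against PCL was -0.13 to 0.15 on the log2 scale.

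Canx, the membrane-bound counterpart of Calr, was at 146, 218 and 279 FPKM on PCL, at 180, 231 and 412 FPKM on ISB-P and at 127 FPKM on TCP. It varied most among the members, 2.28-fold between ISB-P replicates 3 and 1 and 1.90-fold between the same PCL replicates, and the films overlapped. Within replicate numbers ISB-P was higher in 3 of 3, at 1.23, 1.06 and 1.48 times PCL. The log2 fold change of 0.32 had an SE of 0.35 without the block (limma adjusted p = 0.895) and 0.09 with it (limma adjusted p = 0.0351, interval 0.11 to 0.52). With the block, Canx also passed when any replicate number was left out of both films (limma adjusted p = 0.0383, 0.00351 and 0.00267 without numbers 1, 2 and 3), and did not pass under quantile or common total scaling. The fits without a replicate number hold so few libraries that limma borrows most of the spread from other genes. Their p-values are therefore no measure of robustness. Without the block, leaving out ISB-P replicate 3 alone took the log2 fold change to -0.02.

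Pdia3, the isomerase that works with Calr and Canx on glycoproteins, was at 430, 541 and 656 FPKM on PCL, at 431, 516 and 788 FPKM on ISB-P and at 418 FPKM on TCP. Pdia6 was at 258, 281 and 336 FPKM on PCL, at 256, 274 and 354 FPKM on ISB-P and at 263 FPKM on TCP. Both were lowest in replicate 1 and highest in replicate 3 of each film. Pdia4, an isomerase found with Hspa5 complexes, was at 126, 131 and 141 FPKM on PCL, at 127, 124 and 147 FPKM on ISB-P and at 90.9 FPKM on TCP. The log2 fold changes of ISB-P against PCL were 0.07 for Pdia3 (SE 0.26), -0.0031 for Pdia4 (SE 0.13) and 0.012 for Pdia6 (SE 0.17). In the blocked fit their intervals were -0.11 to 0.24 for Pdia3, -0.15 to 0.15 for Pdia4 and -0.13 to 0.16 for Pdia6, on the log2 scale.

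Xbp1, whose mRNA is spliced by Ern1 to give the active factor, was at 97.2, 94.4 and 97.7 FPKM on PCL, at 108, 100.2 and 97.2 FPKM on ISB-P and at 141 FPKM on TCP. The log2 fold change was 0.08 (SE 0.11, limma adjusted p = 0.915), and the films overlapped. Values summed per gene cannot tell the spliced from the unspliced mRNA, so splicing was not measured here.

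Herpud1, a ubiquitin-like protein that joins the Syvn1 degradation complex and a usual target of the unfolded protein response, was the member that stood lowest and apart. It was at 29.7, 29.8 and 28.6 FPKM on PCL, at 23.1, 23.0 and 20.5 FPKM on ISB-P and at 35.5 FPKM on TCP. All ISB-P libraries were below all PCL libraries, and all of these were below TCP. The means were 22.2 ± 1.46 FPKM on ISB-P and 29.4 ± 0.645 FPKM on PCL (SD, n = 3 each), a 0.762-fold level with a log2 fold change of -0.39 (SE 0.12, interval -0.67 to -0.11). The unadjusted p of 0.0129 gave a limma adjusted p of 0.207, and the exact permutation p was 0.1, the smallest that 3 against 3 allows. With the replicate block the limma adjusted p was 0.00636 (interval -0.56 to -0.22), and ISB-P was 0.785, 0.778 and 0.726 times PCL within replicates 1, 2 and 3. Leaving any replicate number out of both films kept the blocked call (limma adjusted p = 0.0200, 0.0123 and 9.3e-06 without numbers 1, 2 and 3). The log2 fold changes there were -0.41, -0.41 and -0.36. So few libraries remain in those fits that limma borrows most of the spread from other genes. The share of all genes called in them is not given, so these p-values are no measure of robustness.

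The spread between libraries of a film was larger than the difference between films for most members. For 7 of the 10, Hspa5, Hsp90b1, Calr, Canx, Pdia3, Pdia4 and Pdia6, replicate 3 was the highest library on both films, as it was for 43.1% of all tested genes. Hyou1 and Herpud1 had their highest value elsewhere on both films, and Xbp1 on ISB-P. Summed over the members, the level was 2428, 2612 and 3242 FPKM on PCL replicates 1, 2 and 3, and 2525, 2567 and 3633 FPKM on ISB-P, beside 2164 FPKM on TCP. These sums were 0.447%, 0.467% and 0.542% of all FPKM in the PCL libraries, 0.426%, 0.435% and 0.550% in the ISB-P libraries, and 0.401% in the TCP library.

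**Figure D3:**
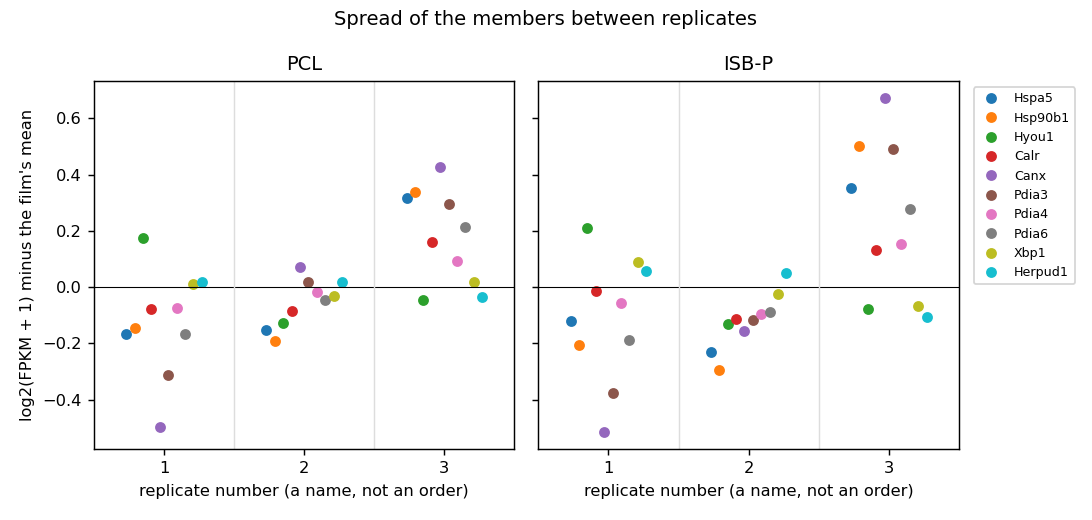
Log2(FPKM + 1) of each gene less its mean over the 3 libraries of the film, by replicate number, for PCL (left) and ISB-P (right), with small sideways shifts to part the points. On both films 7 of the 10 genes lie highest in replicate 3, Hyou1 lies highest in replicate 1, and Canx spans the widest range.

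The TCP library was below all 6 film libraries for 6 members (Hspa5, Hsp90b1, Calr, Canx, Pdia3 and Pdia4), as it was for 29.7% of all tested genes. It was above all of them for Xbp1 and Herpud1, as for 25.4% of tested genes, and within their range for Hyou1 and Pdia6. As ratios of the film mean plus 1 to TCP plus 1, Hsp90b1 was 1.96 times TCP on ISB-P and 1.84 times on PCL, and Canx was 2.15 and 1.68 times. These 2 were the members past 1.5-fold higher on either film, where 21.0% of tested genes on ISB-P and 14.1% on PCL were that much higher. Herpud1, at 0.636 of TCP on ISB-P and 0.834 on PCL, was past 1.5-fold lower on ISB-P alone, beside 13.3% of tested genes on ISB-P and 9.28% on PCL. Xbp1 was at 0.726 of TCP on ISB-P and 0.687 on PCL. The median log2 ratio over the members was 0.32 for ISB-P (0.08 over all tested genes) and 0.27 for PCL (0.07 over all). The ISB-P median depended on the scaling and on 1 library, at 0.20 under upper quartile scaling, 0.13 under common total scaling, 0.045 under quantile normalization and 0.18 without ISB-P replicate 3. For PCL it was 0.17 under upper quartile scaling and 0.14 under quantile normalization. Both films were compared with the same TCP library.

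With 1 TCP library there is no test of its own. In a limma fit that lends it the spread of the films, so that the lone library is assumed to vary as they do, 1 member was called against TCP for ISB-P, Herpud1 (log2 fold change -0.65, limma adjusted p = 0.0471), and 0 for PCL. The same fit called 12.5% of tested genes for ISB-P and 7.78% for PCL. Markers of other cells moved along with this comparison. Adipocyte markers summed to 116 FPKM on TCP, 29.9 to 46.5 FPKM on PCL and 34.0 to 58.3 FPKM on ISB-P, and all 5 were higher on TCP than in any film library. The 7 haematopoietic markers found of 8 listed summed to 124 FPKM on TCP, 37.4 to 45.0 FPKM on PCL and 37.4 to 43.3 FPKM on ISB-P, with 2 of them under 1 FPKM in every library. Osteoblast markers summed to 30.4, 14.0 to 18.7 and 11.1 to 17.7 FPKM in that order, but 3 of the 5 were under 1 FPKM in every library. TCP was above all film libraries for 3 of these 5, while Dmp1 was lower on TCP (0.131 FPKM) than in any film library (0.427 to 0.832 FPKM). The part of these marker genes in the differences from TCP was not tested.

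Each lumenal chaperone has relatives in the cytosol, and 6 pairs were compared through the ratio of the ER gene to its relative inside each library. All 6 relatives are among the 11 heat shock genes that the study picked as higher on ISB-P in these libraries, so the direction of the ratios followed from that choice wherever the ER gene changed less, and their tests are no independent evidence of it. In all 6 pairs the ratio was lower on ISB-P than on PCL with no overlap, and lower in 3 of 3 replicate numbers. Each pair gave an exact permutation p of 0.1, two-sided, the smallest possible with 3 against 3, and 0.1 after Benjamini-Hochberg adjustment over the 6 pairs. The exact sign-flip test within replicate numbers likewise gave its smallest value, 0.25. No pair could therefore pass a threshold of 0.05.

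Hspa5 was far below Hspa8 in every library. The log2 ratio of Hspa5 to Hspa8 was -3.41 ± 0.144 on ISB-P and -2.11 ± 0.160 on PCL (SD, n = 3 each), with -1.98 on TCP. Hspa8 was at 1191, 1335 and 1478 FPKM on PCL and at 3105, 3351 and 4162 FPKM on ISB-P, and it rose by 1.40 on the log2 scale (SE 0.15, limma adjusted p = 0.00831). The difference between the changes of Hspa5 and Hspa8 was -1.30 (SE 0.12).

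For the stress-inducible cytosolic Hsp70 the order of the levels differed between the films. Hspa1a was at 13.4, 10.9 and 10.1 FPKM on PCL, 954, 646 and 263 FPKM on ISB-P and 91.1 FPKM on TCP, so that the log2 ratio of Hspa5 to Hspa1a was 4.64 on PCL and -0.73 on ISB-P, with 1.495 on TCP. In ISB-P replicates 1 and 2 Hspa1a was above Hspa5, and in replicate 3 it was below. Hspa1b was at 2.27, 3.00 and 3.12 FPKM on PCL and 146, 181 and 276 FPKM on ISB-P, and the log2 ratio of Hspa5 to Hspa1b was 6.35 on PCL, 0.76 on ISB-P and 3.84 on TCP. Hspa1a and Hspa1b are near-identical copies, so how reads were divided between them is uncertain. Both rose in limma's test (adjusted p = 0.00361 for Hspa1a and 0.000879 for Hspa1b).

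Hsp90b1 stood near Hsp90aa1, the inducible cytosolic Hsp90, on PCL (log2 ratio 0.07) and TCP (0.24) and well below it on ISB-P (-1.56), a difference of -1.63 (SE 0.18). Hsp90aa1 itself was at 310, 346 and 542 FPKM on PCL and 920, 1002 and 2167 FPKM on ISB-P, a log2 fold change of 1.70 that missed the threshold without the block (limma adjusted p = 0.0922) and passed with it (9.3e-06). Against Hsp90ab1, the constitutive form, the ratio was -1.25 on ISB-P, -0.38 on PCL and -0.61 on TCP. Hyou1 and Hsph1 were at like levels on PCL (log2 ratio -0.35) and TCP (-0.02), while on ISB-P Hyou1 was lower by 2.88 on the log2 scale. Hsph1 rose from between 56.1 and 76.9 FPKM on PCL to between 289 and 419 FPKM on ISB-P (log2 fold change 2.38, SE 0.20, limma adjusted p = 0.00361).

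**Figure D4:**
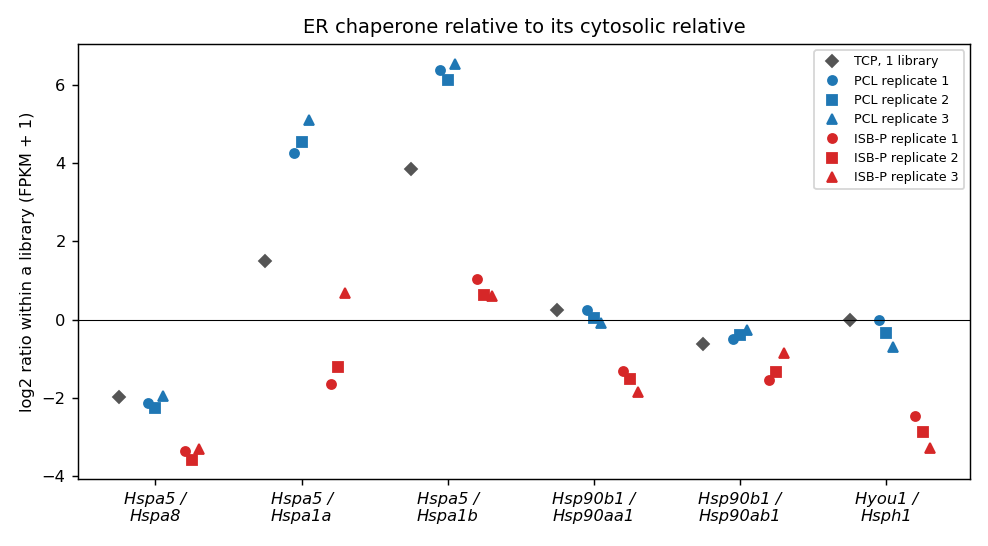
Log2 ratio of an ER chaperone to its cytosolic relative, (FPKM + 1) over (FPKM + 1), in each library for the 6 pairs. In every pair the 3 red ISB-P points lie below the 3 blue PCL points, by 0.87 on average for Hsp90b1 and Hsp90ab1 and by far more for Hspa5 and Hspa1b.

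A further 6 lists cover the rest of the ER folding pathway, with 130 genes listed, 120 found and 112 tested. Of the 112, 4 had an unadjusted p under 0.05 in limma, beside 12.1% of all tested genes. None of the 112 was called higher or lower on ISB-P by limma, and none changed over 2-fold. Their log2 fold changes ran from -0.31 to 0.47 with a median of 0.05, beside 0.02 over all tested genes. With the replicate block 8 were called higher and 4 lower, against the 13.0% and 11.4% of all tested genes given above.

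Among other ER chaperones and cochaperones (20 tested of 23 listed) the median was 0.05. Serpinh1, the collagen chaperone, was at 826 to 1027 FPKM on PCL and 941 to 1471 FPKM on ISB-P (log2 fold change 0.36, limma adjusted p = 0.538) and passed with the block (0.00903). Dnajb9, a cochaperone of Hspa5, had 0.35 (limma adjusted p = 0.908). At the other end were Tor1a, an ER ATPase, with -0.31 (limma adjusted p = 0.426, and 0.0458 with the block), and Creld2, a chaperone induced by ER stress, with -0.24 (limma adjusted p = 0.680).

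Among other oxidoreductases and prolyl isomerases (23 tested of 28) the median was 0.0071. Tmx1, a membrane-bound isomerase, had 0.34 (limma adjusted p = 0.853, and 0.0156 with the block), and Ero1l, the oxidase that recharges the isomerases, had 0.25 (limma adjusted p = 0.844). Fkbp11 had -0.12 and Erp29 -0.08. Glycan transfer and trimming genes (14 tested of 16) had a median of 0.02 and 0 calls with the block too. Their ends were Stt3a, a catalytic subunit of oligosaccharyltransferase, with 0.23, Ostc with 0.13, Dad1 with -0.09, and Prkcsh, a glucosidase subunit, with -0.22.

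For ER-associated degradation, the pathway of Herpud1, 20 of 24 listed genes were tested and the median was 0.06. Syvn1, the ubiquitin ligase that Herpud1 joins, was at 29.2, 30.8 and 21.6 FPKM on PCL, 24.9, 26.0 and 16.4 FPKM on ISB-P and 39.0 FPKM on TCP. Its log2 fold change was -0.28 (limma adjusted p = 0.785), and it was lower in 3 of 3 replicate numbers with a blocked adjusted p of 0.0282 in limma. Edem2 had -0.26 (limma adjusted p = 0.561). In the other direction Ubxn4 had 0.47 and Ufd1l 0.35 (limma adjusted p = 0.350 and 0.614), both called with the block (0.00194 and 0.0123). The block called 3 genes of this list higher, with Nploc4, and 2 lower, Syvn1 and Edem3, where Nploc4 and Edem3 are named for that call alone. Over all tested genes the block called 13.0% higher and 11.4% lower, so these counts are near the share over all genes.

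The translocon list (23 tested of 25) had a median of 0.12 and no calls without the block. Its ends were Sec61a2, a channel subunit, with 0.41 (limma adjusted p = 0.677, and 0.00476 with the block), Srp54a with 0.26, Spcs1 with 0.0045 and Srprb with -0.08. Of the sensors and factors of the unfolded protein response, 12 of 14 were tested, with a median of 0.07. None was called without the block, 2 had an unadjusted p under 0.05 (Nfya and Ern1), and the block called these 2 higher and Creb3l2 lower. Of all tested genes 12.1% had such an unadjusted p, and the block called 13.0% higher and 11.4% lower. Creb3l1 had 0.11, Nfyc 0.11, Atf6b -0.13 and Creb3l2 -0.30 (limma adjusted p = 0.627, and 0.0233 with the block). Nfya, a subunit of the factor NF-Y and too low for the naming rule, was at 9.54 to 9.90 FPKM on PCL and 10.96 to 15.3 FPKM on ISB-P with no overlap. Its log2 fold change of 0.45 had an unadjusted p of 0.0221 and a limma adjusted p of 0.277 (0.0143 with the block). Ern1, the sensor that splices Xbp1, was at 6.21 to 6.97 FPKM on PCL and 7.58 to 8.91 FPKM on ISB-P, with an unadjusted p of 0.0378 and a limma adjusted p of 0.358 (0.0276 with the block). Nfya and Ern1 were chosen after their values were seen.

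**Figure D5:**
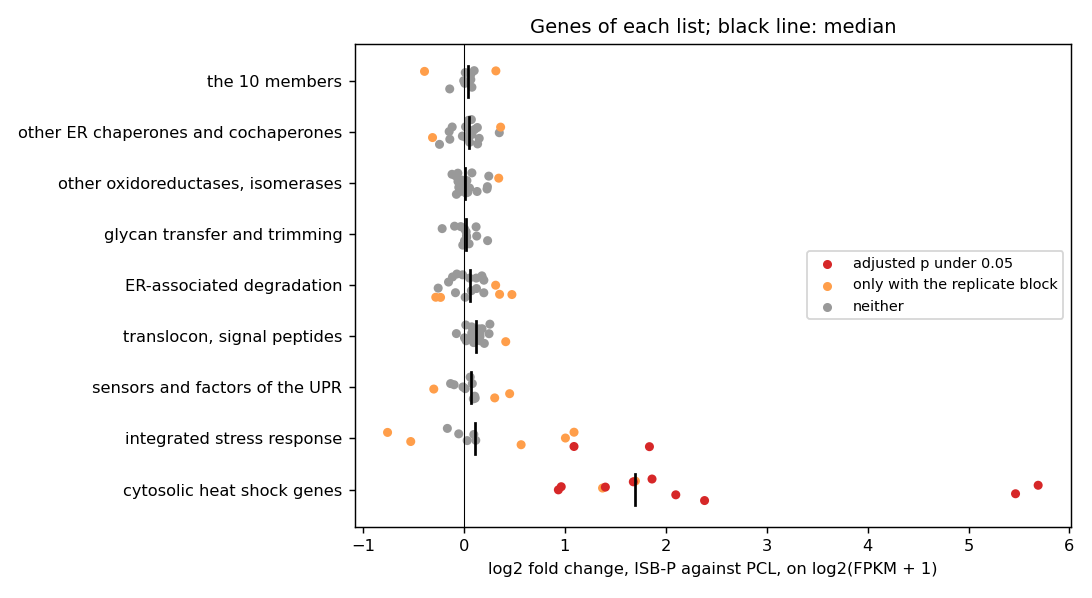
Log2 fold change of ISB-P against PCL for every tested gene of the 10 members, 6 further ER lists, the integrated stress response and the cytosolic heat shock genes, with a black line at each median. Points of the 7 ER groups stay between -0.39 and 0.47, none red, while both Ddit3 and Atf3 in the stress response list and 9 of the 11 cytosolic genes are red (adjusted p under 0.05), and orange marks genes called only in the blocked fit.

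Beside these, 12 of 13 genes of the integrated stress response, which the ER sensor Eif2ak3 shares with kinases outside the ER, were tested. Ddit3, the factor also known as Chop, was at 16.9, 12.6 and 15.0 FPKM on PCL, 69.7, 47.4 and 51.2 FPKM on ISB-P and 27.8 FPKM on TCP, and it rose by 1.84 on the log2 scale (SE 0.19, limma adjusted p = 0.00805). Atf3 was at 6.95 to 8.06 FPKM on PCL and 15.0 to 18.4 FPKM on ISB-P and rose by 1.09 (SE 0.13, limma adjusted p = 0.0159). Among genes that met the naming rule the low end was Ddit4 with -0.53 (limma adjusted p = 0.192, and 0.00246 with the block), then Cebpb with 0.03. Chac1, too low for that rule, had the lowest value of the list, -0.76 (limma adjusted p = 0.112, and 0.00153 with the block). The block called 5 higher (Atf3, Atf4, Ddit3, Ppp1r15a and Trib3), beside 13.0% of all tested genes. It called 2 lower (Chac1 and Ddit4), beside 11.4%. Atf4, Ppp1r15a and Trib3 are named for that call alone. The count of 2 higher went to 0 without PCL replicate 2, and to 1 without PCL replicate 1, PCL replicate 3 or ISB-P replicate 2.

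Of the 11 cytosolic heat shock genes, which the study picked out on these libraries and which are therefore no independent evidence of direction, 9 were called higher and 0 lower, with a median log2 fold change of 1.70, from 0.93 for Hsp90ab1 and 0.96 for Cryab to 5.47 for Hspa1a and 5.69 for Hspa1b. The block called all 11. Their count was 5 without PCL replicate 1 or 3, and 4 without PCL replicate 2 or ISB-P replicate 2. All 11 lay above every one of the 10 members, whose highest value was 0.32.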

How the data were processed

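RNA-seq of 7 rMSC libraries was analysed, with groups and replicate numbers from the labels. The tables that the authors deposited list a value per gene symbol and library, taken as FPKM because the submitters' processing notes name Cuffdiff 2.2.1, beside bcl2fastq 2.20.0.422, cutadapt 1.18, TopHat2 2.0.13 and build rn5. The methods name stranded mRNA libraries, paired ends and ExDEGA. FPKM is scaled by library size, so a gene's value may also depend on what the other genes take. Reads of near-identical genes may be divided arbitrarily. The values were used as deposited.

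A gene was tested if 3 or more of the 6 film libraries reached 1 FPKM. Log2(FPKM + 1) was compared in R 4.3.3 by limma 3.58.1 (lmFit and eBayes, trend set), two-sided, and p-values were adjusted by Benjamini-Hochberg over all 9467 genes, a call being an adjusted p under 0.05. Fold changes are on this scale and understate changes of low genes. Pairs of ER and cytosolic genes were compared by exact permutation. The sources do not say that replicate numbers pair the libraries, and the block was inferred from the same values. Deviations from the film means over tested genes correlated at 0.887, 0.431 and 0.867 for numbers 1, 2 and 3. Between different numbers the mean was -0.36, which is no separate evidence, because deviations from a film's mean cancel within the film. The study's methods state no block, so the fit without it is the main one.

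The members and gene lists were chosen with earlier results of these data known. Named genes are the members, the 6 cytosolic relatives, in each list the 2 highest and 2 lowest fold changes among genes averaging 16 FPKM or more on a film, and the 5 genes most like Hspa5. Genes named outside this rule are marked. Alternatives were 3 other scalings, 2 other filters, a pseudocount of 0.1, the block, TCP in the fit and each film library left out. The block under the other scalings, and with each replicate number left out, were added after the data were seen. Promoter sequence came from RefSeq (GRCr8). Figures used matplotlib 3.10.9 in Python 3.11.15.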

Additional observations from a re-analysis of the deposited data

How the results depend on the processing

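Of 683 recomputed values, 508 stayed within the limits set for a change (for a fold change its direction and side of the threshold, for a count 1.5 times, for other values the spread between replicates), 112 moved past them, 14 newly passed the test and 49 changed sign. The filters, the block and TCP in the fit leave a gene's log2 fold change itself as it was, so its direction could not change there. The share that stayed is therefore no measure of robustness. With the replicate block, members called higher on ISB-P numbered 1, also 1 with upper quartile scaling or without replicate number 1, 2 or 3 of both films, and 0 with quantile or common total scaling. Members called lower numbered 1 with the block alone, with upper quartile scaling and without any number, and 2 with quantile or common total scaling, where Hyou1 joined Herpud1 (limma adjusted p = 0.0395 and 0.0231). Over the 6 further ER lists the block called 8 higher and 4 lower, with upper quartile scaling 8 and 4, quantile normalization 7 and 7, common total scaling 6 and 11, and without number 1, 2 or 3 it called 7 and 1, 12 and 2, and 16 and 3. Fits without a replicate number hold few libraries and borrow most of their spread from other genes, so their calls are no measure of robustness. The members' median log2 fold change of 0.04 became -0.094 under quantile normalization and -0.076 under common total scaling, with or without the block, and -0.017 with the block without number 3. It ran from -0.091 to 0.10 with 1 film library left out. Under quantile normalization the median log2 ratio of ISB-P to TCP was 0.045.

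Signs changed for 8 of the members, and a scaling gave the same log2 fold change with the block. Under quantile normalization and common total scaling the log2 fold changes were -0.063 and -0.015 for Hspa5, -0.097 and -0.049 for Hsp90b1, -0.092 and -0.11 for Calr, -0.025 and -0.049 for Pdia3, -0.15 and -0.10 for Pdia6, and -0.046 and -0.037 for Xbp1. Upper quartile scaling gave -0.013 for Calr and -0.0081 for Pdia6. In the block Calr was -0.023 without number 1, Pdia4 0.036 without number 2, and without number 3 Hsp90b1 was -0.014, Pdia3 -0.032 and Pdia6 -0.020. With 1 library left out the range was -0.076 to 0.26 for Hspa5, -0.18 to 0.24 for Hsp90b1, -0.058 to 0.088 for Calr, -0.021 to 0.57 for Canx, -0.18 to 0.26 for Pdia3, -0.079 to 0.045 for Pdia4 and -0.13 to 0.12 for Pdia6. Common total scaling divides each library by its FPKM sum. The sums were 590628 to 660124 FPKM on ISB-P and 542921 to 597954 FPKM on PCL, and the scaling shifted the median of all genes by -0.10. Why the sums differed was not tested. Herpud1 stayed between -0.50 and -0.34 in every alternative and passed against PCL only in the block. Depth is unknown, and 3 libraries a film left an interval as wide as -0.52 to 1.16 for Canx.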

Other observations

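Across all 7 libraries, the genes whose log2(FPKM + 1) followed Hspa5 most closely among the 4802 averaging 16 FPKM or more were outside the ER list. They were Rbm25, a splicing factor (r = 0.993), Smc3, a cohesin subunit (0.989), Phax, an RNA export adaptor (0.989), Tpr, a nuclear pore protein (0.988), and Mphosph6 of the RNA exosome (0.987). Of the other members, Pdia6 correlated with Hspa5 at 0.926, Calr at 0.922, Hsp90b1 at 0.909, Pdia3 at 0.892, Canx at 0.877 and Pdia4 at 0.729, and 160 genes had a higher correlation than Pdia6. Hyou1 was at -0.09, Xbp1 at -0.42 and Herpud1 at -0.57. These correlations describe 7 libraries that share replicate numbers and, for the films, the same high replicate 3.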
